A study of Mus musculus with 30 samples.

Results

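The data described are the RNA-seq levels of 8 mouse genes around bone morphogenetic protein (BMP) signalling: the ligand Bmp4, the secreted BMP antagonist Grem1 (gremlin 1), the decoy receptor Bambi, the inhibitory SMAD Smad6, and Id1, Id2, Id3 and Id4. The 8 were selected by gene symbol from 52630 genes in a time-course count table and 55487 genes in a passage count table, and they were chosen on values of these same libraries, so their levels and fold changes are given as a description. Where the text says that a member's value passed, this states only its side of the threshold in the fit over all genes, and it is no independent evidence about the members. All 8 passed the filter on low counts in the time course and 7 did in the passage experiment, where Grem1 had at most 12 counts in any library. Another 61 genes of the pathway, listed by role, were tested. That list too was made with earlier results of these data known, so its counts and p-values are not independent evidence either.

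All libraries came from E14tg2a mouse embryonic stem cells (ESCs), a single established line, with 3 libraries per group. In the time course, cells in Serum/LIF (labelled 0 h) were compared with cells moved to EMM for 3, 9 and 24 h. In the passage experiment, cultures went through 10 passages (P10) or 20 passages (P20) in either Serum/LIF, EMM or 2i/LIF. Serum/LIF is serum-containing medium with glucose, pyruvate and the cytokine LIF, EMM is the same medium with galactose in place of glucose and pyruvate, and 2i/LIF is LIF with inhibitors of the kinases MEK and GSK3. Serum was therefore in both Serum/LIF and EMM, and LIF in every group. The label of the time-course Serum/LIF group gives 0 h, while its treatment text speaks of 24 h in Serum/LIF.

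BMP ligands bind pairs of type I and type II receptors, which phosphorylate SMAD1, SMAD5 and SMAD9 (also called SMAD8). These enter the nucleus with SMAD4, and the Id genes are among their best known direct targets. ID proteins have a helix-loop-helix domain but no DNA-binding region, and they hold E proteins such as TCF3, TCF4 and TCF12 away from DNA. In mouse ESCs, BMP in serum acting through Id genes is known to sustain self-renewal together with LIF. SMAD6 and BAMBI are feedback inhibitors, and GREM1 binds BMP2 and BMP4 outside the cell.

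Total counts ran from 24074132 to 35301962 per library in the time course and from 6944904 to 27912928 in the passage experiment. The 6 ESC markers summed to between 2714 and 4206 CPM (counts scaled to a common, TMM-adjusted library total) in every library, and Pou5f1 was at 958 CPM or more throughout. The ESC sum was 3750 to 4206 CPM in P10 EMM and 2714 to 3020 CPM in P10 Serum/LIF, with 3 genes higher and 0 lower. At P20 it was 2844 to 2908 CPM in EMM and 3246 to 3498 CPM in Serum/LIF, with 0 higher and 3 lower. From P10 to P20 in EMM 0 were higher and 3 lower, and after 3 h of EMM 1 was higher and 3 were lower. The 6 fibroblast markers did not hold even either: their sum was 143 to 171 CPM in P10 Serum/LIF and 229 to 455 CPM in P20 Serum/LIF, against 9.12 to 23.3 CPM in EMM and 2.89 to 6.32 CPM in 2i/LIF of the passages. Col1a1 and Col1a2, genes for the chains of type I collagen, carried most of the sum in Serum/LIF, while Thy1 made up nearly all of the sum in P10 EMM, at 16.6 to 22.9 CPM there against 7.35 to 10.7 CPM in P10 Serum/LIF. Lum was at 3 counts or fewer in every library of both passage Serum/LIF groups. In the time course the sum was at most 64.0 CPM in Serum/LIF and 42.4 to 69.2 CPM in EMM. Summed markers of other fates were at 5.12 to 25.9 CPM for 7 primitive endoderm genes, 12.1 to 68.4 CPM for 6 mesoderm genes, 0.734 to 21.7 CPM for 4 trophectoderm genes and 19.2 to 131 CPM for 4 neural genes, mostly Tubb3. T, a mesoderm marker, was at 41.9 to 56.4 CPM and Cdx2 at 14.4 to 19.1 CPM in P10 2i/LIF, against 5.89 to 7.58 CPM and 0.602 to 0.994 CPM in P20 2i/LIF. Between the same groups Kdr, another mesoderm marker, went the other way, from 0.313 to 0.465 CPM at P10 to 1.36 to 3.38 CPM at P20, and the neural sum was 19.2 to 25.9 CPM at P10 and 95.7 to 104 CPM at P20, with 2 of 3 tested genes higher. Of the neural genes, Tubb3 and Sox1 lie on chromosome 8. Its genes as a whole had a median 0.34 above that of all genes on the log2 scale in P20 against P10 2i/LIF. In the time course the primitive endoderm sum was 14.0 to 15.2 CPM in Serum/LIF and 25.3 to 25.9 CPM after 24 h of EMM, with 4 of 7 genes higher and 0 lower. The trophectoderm sum was 5.81 to 7.09 CPM and 10.4 to 11.5 CPM, with 2 of 3 tested genes higher and 1, Cdx2, lower (means of 2.39 and 1.15 CPM). Sox1 was at 7.45 to 7.73 CPM and 19.7 to 23.5 CPM, and 3 of 4 tested fibroblast genes were lower at 24 h. The part of these markers in the comparisons of either experiment was not tested, and in bulk RNA fewer cells of a type and less RNA per cell cannot be told apart.

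Promoter sequence is shown for the members that differed most from Serum/LIF in the time course, Grem1, Id2 and Id4, because all of them hold the letters GGCGCC, a GC-rich element known to bind SMAD1 and SMAD5. The sequences are from RefSeq (GRCm38.p6), 5′ to 3′ on the gene's strand, and end at the base before the RefSeq start, which for Grem1 and Id4 is not the same base as the GENCODE gene start used for the gene coordinates given further on, or, for Id2, at the base before an Id2 exon of GENCODE M21, whose annotation puts that stretch between exons of the gene. They cover chr2:113758649-113758898 on the minus strand for Grem1 (250 bases), chr12:25096254-25096342 on the minus strand for Id2 (89 bases) and chr13:48260866-48261115 on the plus strand for Id4 (250 bases). Capitals mark the match, which reads the same on both strands.
Grem1: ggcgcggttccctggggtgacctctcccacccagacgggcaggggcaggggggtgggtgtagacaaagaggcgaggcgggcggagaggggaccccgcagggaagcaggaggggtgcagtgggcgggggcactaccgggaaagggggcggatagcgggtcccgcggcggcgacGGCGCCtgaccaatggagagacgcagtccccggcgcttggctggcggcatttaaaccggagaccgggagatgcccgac
Id2: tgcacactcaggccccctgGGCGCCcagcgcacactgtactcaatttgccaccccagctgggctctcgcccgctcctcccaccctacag
Id4: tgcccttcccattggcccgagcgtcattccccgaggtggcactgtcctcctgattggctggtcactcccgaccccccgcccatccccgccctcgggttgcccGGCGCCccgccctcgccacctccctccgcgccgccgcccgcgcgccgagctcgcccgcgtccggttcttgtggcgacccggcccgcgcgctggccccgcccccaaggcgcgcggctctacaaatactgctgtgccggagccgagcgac
Among 32851 promoters of the same table, 9.59% hold GGCGCC in their 250 bases and 2.73% in the outermost 89 bases. Windows of 6 members were matched by symbol, those of Id1 and Bambi not being among them, and the 250 bases of Bmp4, Id3 and Smad6 do not hold these letters. The matches describe sequence only, and binding was not measured.

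In the first day of EMM, Grem1, Id2 and Id4 were higher at every time point, with Id2 highest at 3 h, and Bmp4 was higher at 24 h. Id3 was lowest at 3 h, Smad6 was lower at 3 and 9 h, and Bambi libraries were below Serum/LIF at every time. The 3 groups of Id1 libraries in EMM overlapped those in Serum/LIF. At 3 h, 3 members were higher and 2 were lower with an adjusted p under 0.01 (edgeR's quasi-likelihood test over all genes), beside 16.3% and 18.2% of the 16049 genes tested. At 9 h the counts were 3 and 2, beside 18.5% and 19.7% of genes, and at 24 h they were 4 and 1, beside 21.8% and 22.2%. The median log2 fold change of the 8 members was 0.16 at 3 h, -0.01 at 9 h and 0.33 at 24 h, and that of all genes was -0.01, -0.00 and 0.00. The members had been chosen from these contrasts, so nothing follows from the counts themselves.

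**Figure D1:**
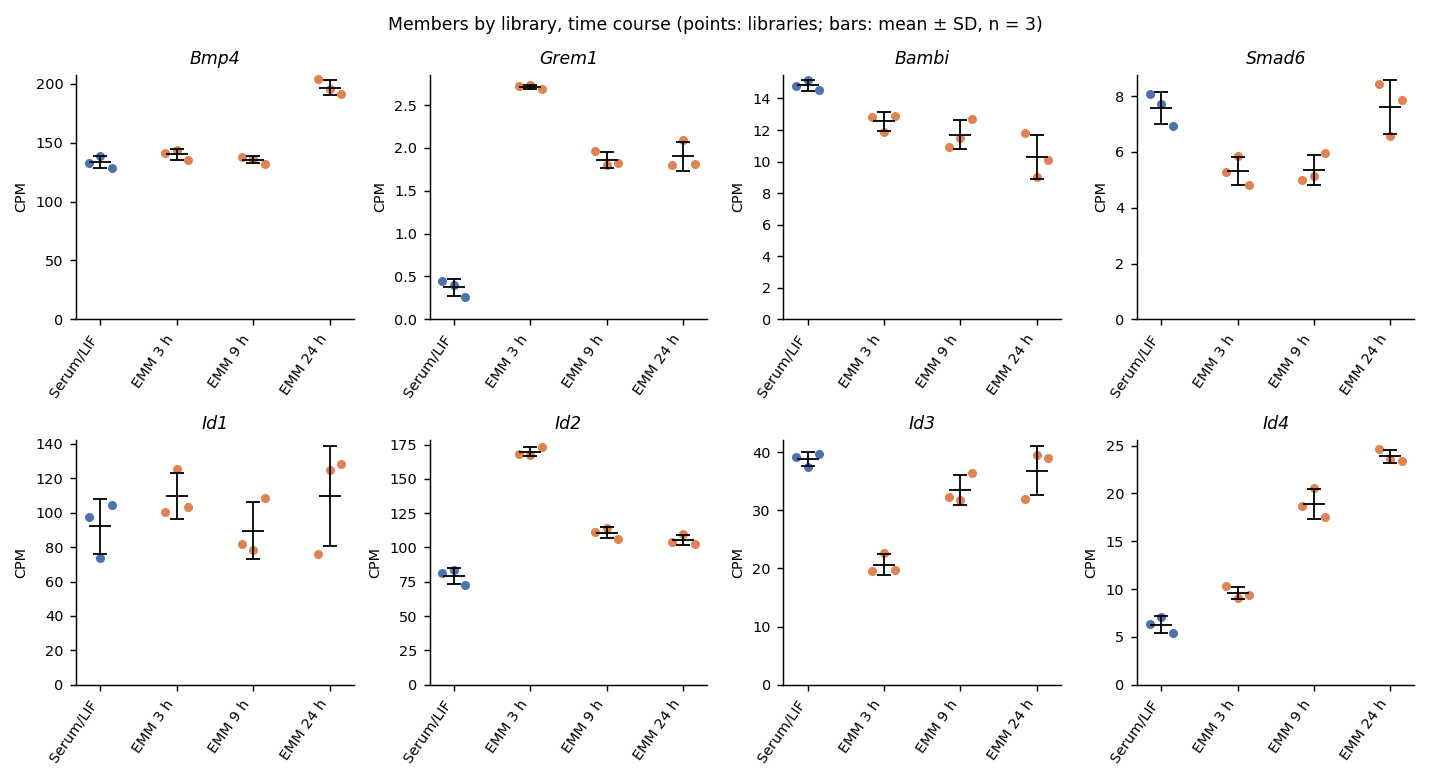
Levels of the 8 members in CPM (vertical axes, each starting at 0) in Serum/LIF (blue) and after 3, 9 and 24 h of EMM (orange). Points are single libraries and black bars the mean ± SD of 3 libraries. Grem1 libraries in EMM sit at 1.80 CPM or more, above the Serum/LIF libraries at 0.451 CPM or less, and Id4 climbs from 5.38 to 7.12 CPM in Serum/LIF to 23.4 to 24.6 CPM at 24 h.

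Bmp4 (chr14:46383520-46390669, minus strand, GRCm38) was the second most abundant member per kilobase of exon in Serum/LIF of the time course, at 59.4 CPM per kilobase against 79.4 for Id1. Its libraries stood at 133, 139 and 128 CPM in Serum/LIF, 141, 144 and 135 CPM at 3 h, and 138, 136 and 132 CPM at 9 h. These 3 groups overlapped. At 24 h the libraries were at 204, 195 and 191 CPM, all above the other groups, and the level was 1.47-fold that of Serum/LIF (log2 fold change 0.56 ± 0.04, SE). The exons of Bmp4 overlap those of Gm15217 on the other strand by 89 bases, and how strand was counted in the time course is not given in the sources used here.

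In the passages Bmp4 was highest in P10 EMM. Libraries of P10 EMM stood at 181, 178 and 156 CPM and those of P20 EMM at 42.3, 39.6 and 39.7 CPM, a 4.24-fold lower level at P20 (log2 fold change -2.08 ± 0.20). Serum/LIF libraries stood at 37.3, 30.5 and 28.3 CPM at P10 and at 60.0, 56.7 and 46.8 CPM at P20. At P10 every EMM library was thus above every Serum/LIF library, by 5.36-fold (log2 fold change 2.42 ± 0.21), and at P20 every EMM library was below them, by a log2 fold change of -0.43 ± 0.20 that did not reach an adjusted p under 0.01. In 2i/LIF, Bmp4 was at 26.5, 40.0 and 17.0 CPM at P10 and 10.2, 15.7 and 13.5 CPM at P20. The P10 2i/LIF libraries overlapped those of P10 Serum/LIF, whereas the P20 2i/LIF libraries were 4.03-fold below P20 Serum/LIF (log2 fold change -2.01 ± 0.22). The log2 fold change from P10 to P20 in 2i/LIF was -1.02 ± 0.22, and without the second P10 2i/LIF library, the one at 40.0 CPM, it was -0.66 and no longer reached an adjusted p under 0.01.

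Grem1 (chr2:113746164-113758646, minus strand) was the least abundant member in every group. Its libraries in Serum/LIF of the time course had 11, 12 and 7 counts, or 0.451, 0.401 and 0.265 CPM. At 3 h of EMM they had 78, 85 and 92 counts, or 2.72, 2.73 and 2.69 CPM, a 7.22-fold higher level (log2 fold change 2.85 ± 0.18). Every EMM library at 3 h was above every Serum/LIF library. At 9 h they stood at 1.97, 1.80 and 1.82 CPM and at 24 h at 1.80, 2.09 and 1.81 CPM, 4.97-fold and 5.06-fold above Serum/LIF (log2 fold changes 2.31 ± 0.19 and 2.34 ± 0.19). The 9 h and 24 h libraries overlapped and all lay below those at 3 h.

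The passages held too few Grem1 counts for a fitted fold change. P10 EMM libraries had 12, 8 and 3 counts (0.618, 0.799 and 0.440 CPM) and P10 Serum/LIF libraries 4, 5 and 4 counts (0.247, 0.318 and 0.297 CPM), so the EMM libraries were all higher in CPM, though the third held fewer counts than any P10 Serum/LIF library. At P20, EMM had 9, 7 and 10 counts and Serum/LIF 8, 9 and 3 counts, and the CPM values overlapped. Libraries in 2i/LIF had 0, 0 and 3 counts at P10 and 1, 0 and 0 at P20. Set against a floor of 3 counts in each 2i/LIF library, P10 EMM had at least 2.52-fold higher Grem1 and P20 EMM at least 1.61-fold higher. These bounds allow for low counts in 2i/LIF only. They take the EMM means as observed, without the counting error or spread of the EMM libraries, of which the third at P10 itself had 3 counts.

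Bambi, which encodes a transmembrane protein like a type I receptor without a kinase domain, drifted lower in EMM. Its libraries were at 14.8, 15.2 and 14.5 CPM in Serum/LIF, 12.9, 11.9 and 12.9 CPM at 3 h, 10.9, 11.5 and 12.7 CPM at 9 h and 11.8, 9.00 and 10.1 CPM at 24 h. All EMM libraries were below all Serum/LIF libraries, with log2 fold changes of -0.24 ± 0.09, -0.34 ± 0.09 and -0.52 ± 0.09, of which the latter 2 reached an adjusted p under 0.01. The call at 9 h was lost when any of 5 libraries was left out. In the passages Bambi did not separate the media: it ranged from 10.0 to 17.5 CPM at P10 and from 7.62 to 10.4 CPM at P20, and the media overlapped within each passage. From P10 to P20 it was lower by log2 fold changes of -0.72 ± 0.17 in EMM and -0.66 ± 0.17 in 2i/LIF, both lost in some fits without 1 library.

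Smad6 (chr9:63953076-64022059, minus strand) was lower at 3 and 9 h and back at its starting level at 24 h. Libraries were at 8.07, 7.72 and 6.93 CPM in Serum/LIF, 5.29, 5.84 and 4.82 CPM at 3 h, 4.98, 5.13 and 5.96 CPM at 9 h and 8.44, 6.56 and 7.86 CPM at 24 h. The 3 h and 9 h libraries lay below every Serum/LIF library, with log2 fold changes of -0.51 ± 0.11 and -0.50 ± 0.11, and the 24 h libraries overlapped Serum/LIF. Without the first Serum/LIF library these values were -0.46 and -0.44 and neither reached an adjusted p under 0.01, and the same held at 3 h without the third 3 h library and at 9 h without the first 9 h library, with -0.44 each. With the replicate number of the library name as a block the values were -0.47 and -0.47, and both calls were lost.

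In the passages the highest Smad6 levels were in P20 Serum/LIF. Its libraries were at 7.40, 8.56 and 7.30 CPM, against 4.83, 6.02 and 5.35 CPM in P20 EMM and 4.07, 3.50 and 4.05 CPM in P20 2i/LIF. All 3 groups were apart, and the log2 fold change against Serum/LIF was -0.52 ± 0.16 in EMM, which did not reach an adjusted p under 0.01, and -1.02 ± 0.17 in 2i/LIF, which did. At P10, Serum/LIF was at 4.76, 4.39 and 5.41 CPM, EMM at 3.76, 2.70 and 2.79 CPM and 2i/LIF at 3.72, 2.98 and 3.91 CPM. EMM lay below Serum/LIF by a log2 fold change of -0.62 ± 0.18, a call lost without any 1 of 5 libraries and with DESeq2's Wald test. From P10 to P20 in EMM, Smad6 was higher by a log2 fold change of 0.78 ± 0.18, a call lost without any 1 of 3 libraries.

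Id1 (chr2:152736251-152737410, plus strand) spread widely within groups of the time course. Its libraries stood at 97.8, 73.9 and 104 CPM in Serum/LIF, 100.3, 125 and 104 CPM at 3 h and 81.7, 78.3 and 109 CPM at 9 h. At 24 h, 1 library stood at 76.0 CPM and the others at 125 and 129 CPM. The groups overlapped at every time, with log2 fold changes of 0.25 ± 0.18, -0.04 ± 0.18 and 0.25 ± 0.18. Without the 24 h library at 76.0 CPM the last value was 0.48 and reached an adjusted p under 0.01.

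In the passages Id1 ran from 1.20 to 112 CPM. Libraries of P10 EMM stood at 73.4, 82.9 and 112 CPM, those of P10 Serum/LIF at 50.2, 45.7 and 40.8 CPM and those of P10 2i/LIF at 2.01, 1.68 and 1.20 CPM. The groups did not overlap, and Id1 in 2i/LIF was 29.2-fold below Serum/LIF (log2 fold change -4.87 ± 0.22) and 57.0-fold below EMM. EMM was 1.95-fold above Serum/LIF (log2 fold change 0.96 ± 0.15). At P20 the libraries stood at 28.7, 25.0 and 24.4 CPM in EMM, 35.7, 28.1 and 33.1 CPM in Serum/LIF and 6.02, 5.02 and 3.68 CPM in 2i/LIF. EMM and Serum/LIF then overlapped, and 2i/LIF was 6.80-fold below Serum/LIF (log2 fold change -2.77 ± 0.19). Between passages Id1 was 3.42-fold lower at P20 in EMM (log2 fold change -1.77 ± 0.15) and 3.04-fold higher at P20 in 2i/LIF (1.60 ± 0.26).

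Id2 (chr12:25093799-25097140, minus strand) was highest at 3 h. Its libraries stood at 81.6, 83.9 and 72.8 CPM in Serum/LIF and at 168, 167 and 173 CPM at 3 h, a 2.14-fold higher level (log2 fold change 1.09 ± 0.05). At 9 h they stood at 111, 114 and 106 CPM and at 24 h at 104, 109.7 and 102 CPM, still above every Serum/LIF library (log2 fold changes 0.48 ± 0.05 and 0.41 ± 0.05) and below every 3 h library.

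After 10 and 20 passages Id2 followed another order. P10 EMM libraries stood at 39.0, 32.2 and 25.0 CPM and P10 Serum/LIF libraries at 34.3, 38.8 and 39.7 CPM, which overlapped. P20 EMM libraries stood at 56.2, 53.2 and 54.6 CPM, 2.22-fold above P20 Serum/LIF libraries at 28.2, 21.0 and 24.9 CPM (log2 fold change 1.15 ± 0.18). In 2i/LIF the libraries stood at 1.21, 2.14 and 2.82 CPM at P10 and 1.96, 1.09 and 2.52 CPM at P20. That was 17.2-fold and 13.8-fold below Serum/LIF (log2 fold changes -4.10 ± 0.24 and -3.78 ± 0.25). The P10 and P20 libraries of 2i/LIF overlapped, with a log2 fold change of -0.29 ± 0.33. In EMM, Id2 was higher at P20 than at P10 by 0.75 ± 0.18, a call lost without any 1 of 4 libraries.

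Id3 (chr4:136143497-136145755, plus strand) differed in the other direction at 3 h. Its libraries stood at 39.2, 37.4 and 39.7 CPM in Serum/LIF and at 19.6, 22.7 and 19.7 CPM at 3 h, 1.87-fold lower (log2 fold change -0.91 ± 0.08). At 9 h they stood at 32.4, 31.8 and 36.5 CPM, still all below Serum/LIF though by a log2 fold change of only -0.21 ± 0.08 that did not reach an adjusted p under 0.01. At 24 h they stood at 32.0, 39.5 and 39.0 CPM, which overlapped Serum/LIF.

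In long-term culture Id3 was lower in EMM at both passages. Libraries stood at 24.0, 22.9 and 22.8 CPM in P10 EMM and 48.4, 40.2 and 36.9 CPM in P10 Serum/LIF, and at 16.8, 19.0 and 15.9 CPM in P20 EMM and 33.3, 29.4 and 38.3 CPM in P20 Serum/LIF. Neither pair overlapped, with log2 fold changes of -0.85 ± 0.12 and -0.96 ± 0.12. In 2i/LIF, Id3 stood at 31.0, 30.2 and 23.8 CPM at P10 and 25.0, 25.9 and 26.3 CPM at P20. These lay below Serum/LIF by log2 fold changes of -0.57 ± 0.12 and -0.38 ± 0.12, the first with an adjusted p under 0.01, sizes far from those of Id1 and Id2 in the same libraries.

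Id4 (chr13:48261228-48266026, plus strand) was the least abundant Id gene in Serum/LIF and went up step by step in EMM. Libraries stood at 6.31, 7.12 and 5.38 CPM in Serum/LIF, 10.3, 9.05 and 9.41 CPM at 3 h, 18.7, 20.6 and 17.5 CPM at 9 h and 24.6, 23.6 and 23.4 CPM at 24 h. No neighbouring groups overlapped. The level was 1.52-fold, 3.01-fold and 3.80-fold that of Serum/LIF (log2 fold changes 0.61 ± 0.10, 1.59 ± 0.09 and 1.92 ± 0.09). Exons of Id4 overlap those of A330033J07Rik by 82 bases and of Gm49291 by 171 bases, both on the other strand.

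Both long-term media held more Id4 than Serum/LIF. Libraries stood at 23.1, 25.1 and 26.6 CPM in P10 EMM, 29.3, 32.1 and 35.7 CPM in P10 2i/LIF and 4.02, 5.59 and 3.71 CPM in P10 Serum/LIF. EMM was 5.56-fold and 2i/LIF 7.27-fold above Serum/LIF (log2 fold changes 2.47 ± 0.17 and 2.86 ± 0.17). At P20 the libraries stood at 13.7, 12.2 and 14.8 CPM in EMM, 8.73, 10.4 and 11.2 CPM in 2i/LIF and 3.84, 4.35 and 2.57 CPM in Serum/LIF. The order of EMM and 2i/LIF turned between passages without overlap, 2i/LIF being higher at P10 and EMM at P20, though neither difference reached an adjusted p under 0.01 (log2 fold changes of EMM against 2i/LIF -0.39 ± 0.15 and 0.40 ± 0.16). From P10 to P20, Id4 was lower by log2 fold changes of -0.87 ± 0.15 in EMM and -1.66 ± 0.16 in 2i/LIF.

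**Figure D2:**
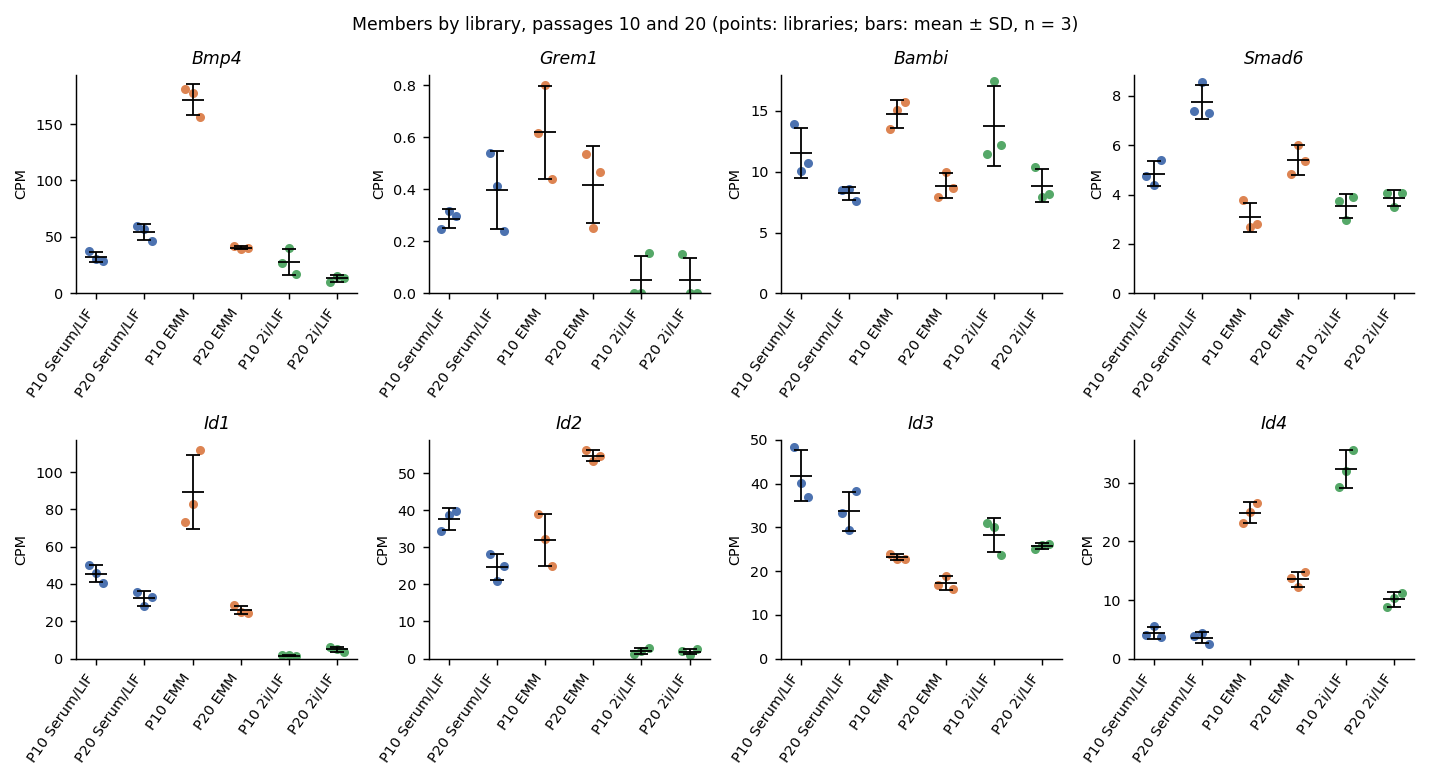
Levels of the 8 members in CPM (vertical axes, each starting at 0) at P10 and P20 in Serum/LIF (blue), EMM (orange) and 2i/LIF (green). Points are single libraries and black bars the mean ± SD of 3 libraries. Id1 and Id2 sit at 6.02 CPM or less in all 2i/LIF libraries, and P10 EMM stands alone for Bmp4 at 156 to 181 CPM.

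Taken by comparison, at P10 EMM had 3 members higher and 2 lower than Serum/LIF with an adjusted p under 0.01, beside 18.7% and 18.7% of the 16054 genes tested, and at P20 it had 2 higher and 1 lower, beside 13.6% and 12.5%. Against 2i/LIF, EMM had 3 higher at P10, beside 22.9% of genes, and 0 lower, beside 22.2%, and at P20 it had 3 higher and 1 lower, beside 25.7% and 22.9%. The 3 higher members were Bmp4, Id1 and Id2 at both passages. In 2i/LIF against Serum/LIF, 1 member was higher and 3 lower at P10, beside 26.4% and 25.6% of genes, and 1 was higher and 4 lower at P20, beside 21.0% and 23.2%. The comparisons share libraries: each Serum/LIF, EMM or 2i/LIF group enters more than 1 of them.

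From P10 to P20, no member reached an adjusted p under 0.01 in Serum/LIF, where 3.16% of genes were higher and 2.85% lower. DESeq2's Wald test called Bmp4, Id2 and Smad6 there, with log2 fold changes of 0.75, -0.63 and 0.67. In EMM, 2 members were higher and 4 lower, beside 13.3% and 11.9% of genes, and in 2i/LIF 1 was higher and 3 lower, beside 13.1% and 15.2%. Chromosomes 8 and 6 as a whole were higher in P20 2i/LIF than in P20 Serum/LIF, with medians 0.45 and 0.33 above that of all genes on the log2 scale. No member lies on either, and the chromosomes that hold the members had medians from -0.17, for chromosome 14 with Bmp4, to 0.04.

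**Figure D3:**
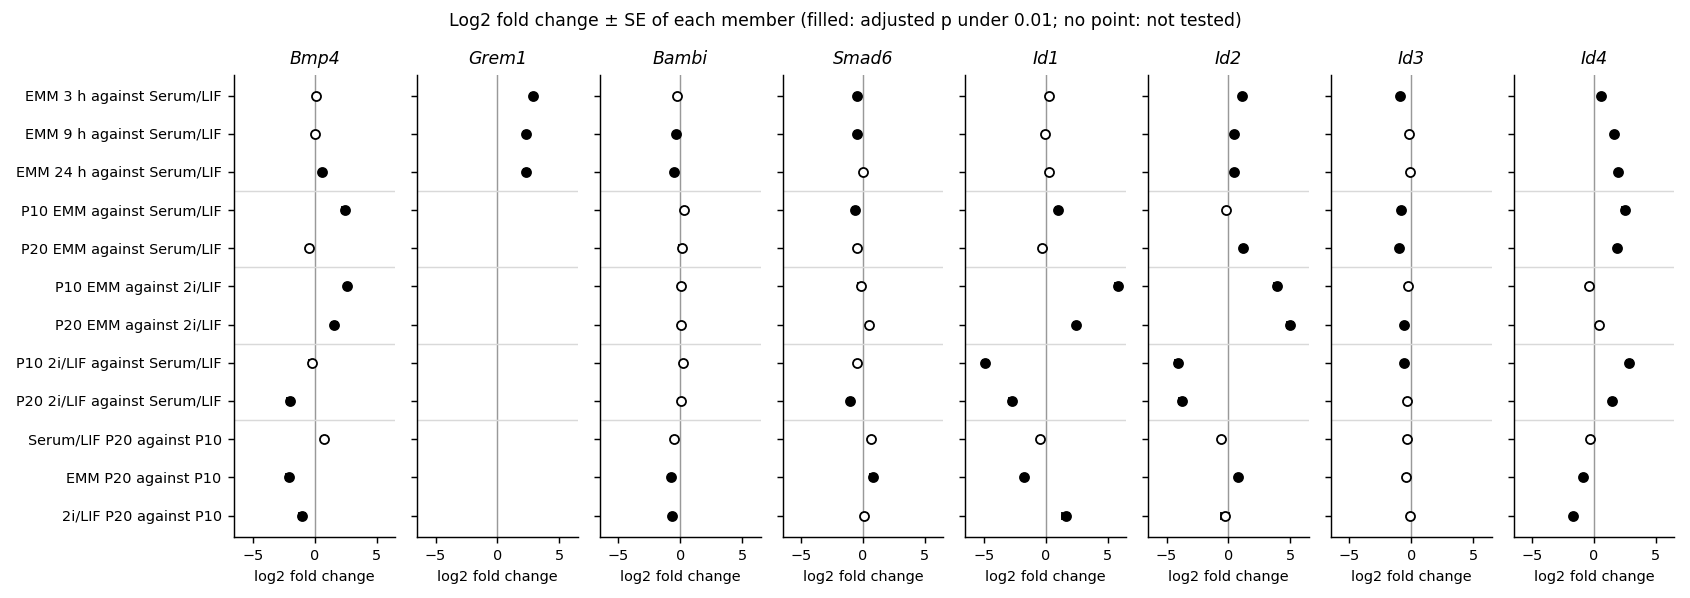
Log2 fold change (horizontal axes) of each member in the 12 comparisons (rows), with the SE as a bar that is often narrower than the point. Filled points have an adjusted p under 0.01, open points do not, and Grem1 has none in the passage rows. The points farthest from 0 are Id1 and Id2 in rows with 2i/LIF, out to 5.83 for Id1 in EMM against 2i/LIF at P10.

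Read per kilobase of exon, so that genes can be set side by side, the 4 Id genes changed both in total and in make-up. Their summed level was 135 ± 12.5 CPM per kilobase (SD, n = 3) in Serum/LIF of the time course and 178 ± 11.9 at 3 h of EMM. It was 146 ± 13.8 at 9 h and 165 ± 27.8 at 24 h, nearer to Serum/LIF. In the passages it was 79.2 ± 6.21 in P10 Serum/LIF, 109.6 ± 14.6 in P10 EMM and 26.5 ± 1.49 in P10 2i/LIF. At P20 EMM and Serum/LIF were nearly level, at 58.0 ± 2.39 and 57.7 ± 6.40, and 2i/LIF was at 22.0 ± 0.224. Levels of the 2 experiments come from tables made separately and are not compared.

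Id1 made up 49.5% ± 1.29 of it in P10 Serum/LIF, 69.7% ± 6.16 in P10 EMM and 5.27% ± 1.11 in P10 2i/LIF. In the time course, Id2 had 24.3% ± 3.87 in Serum/LIF and 39.2% ± 2.89 after 3 h of EMM, and Id3 went from 16.1% ± 1.04 to 6.47% ± 0.149. At 24 h these shares were 26.8% ± 4.81 and 12.6% ± 0.776, nearer to Serum/LIF. In P20 EMM, Id1 and Id2 had shares of 38.7% ± 1.80 and 38.7% ± 1.04, and Id1 had 48.3% ± 1.39 in P20 Serum/LIF, the reverse of its order at P10. In 2i/LIF the sum was mostly Id3, at 59.6% ± 5.24 at P10 and 65.4% ± 2.33 at P20, with Id4 at 31.9% ± 4.92 and 11.9% ± 1.59, against 1.46% ± 0.329 for Id4 in P10 Serum/LIF.

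**Figure D4:**
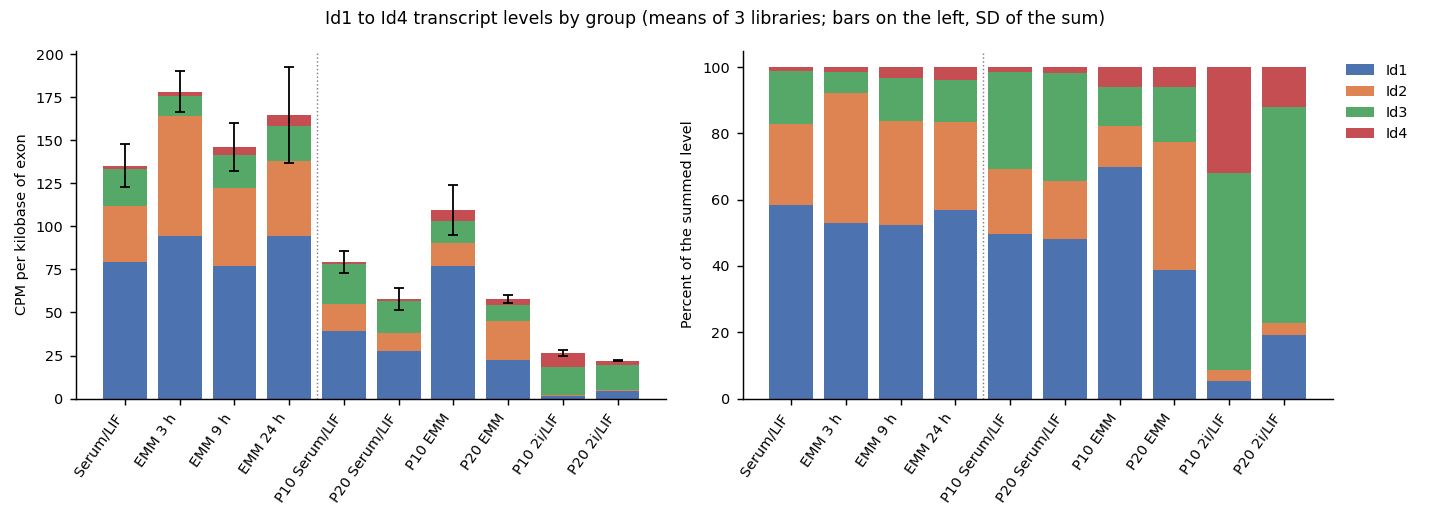
Summed level of Id1 to Id4 in CPM per kilobase of exon (left, bar on the sum: SD of 3 libraries) and each gene's percent of that sum (right), as group means, with the time course left of the dotted line and the passages right of it. Id3 and Id4 fill most of both 2i/LIF bars, and Id1 takes 69.7% of P10 EMM.

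Of the SMADs that carry the signal, Smad1 and Smad4 were not called at any time of the time course, with log2 fold changes between -0.06 and 0.08, and Smad5 rose by 0.18 ± 0.04 at 24 h (adjusted p = 0.0022, edgeR). Bmpr1a and Bmpr2, a type I and a type II receptor, fell by 0.18 and 0.31 on the log2 scale at 3 h. In P10 EMM against P10 Serum/LIF, Bmpr1a, Bmpr2 and Smad5 were lower, with log2 fold changes of -0.38, -0.82 and -0.58, and at P20 none of them passed. Smad1 rose in P20 2i/LIF against P20 Serum/LIF, by 0.76. Smad1 lies on chromosome 8, whose genes as a whole had a median of 0.45.

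Of the 61 other pathway genes, 46 were tested in the time course and 44 in the passages. At 3 h 11 rose and 9 fell, at 9 h 11 and 9, and at 24 h 12 and 10, with medians of -0.01, 0.01 and -0.01 on the log2 scale, and the shares of all genes given above are the background. Gdf6, a BMP ligand of low level, rose at each time, by 1.75 ± 0.36, 1.52 ± 0.37 and 2.08 ± 0.34 (adjusted p = 0.00089, 0.0028 and 0.00011, edgeR). Hfe2 (hemojuvelin), a BMP co-receptor, fell by 2.68 at 24 h, and Neo1 (neogenin), its partner and a receptor for RGM proteins, rose by 1.30 ± 0.04. Among antagonists, Nog (noggin) rose by 0.91 ± 0.12 at 3 h and Nbl1 by 1.25 ± 0.15 at 24 h. Gata2, counted here as a target, went from 2.34 CPM to 10.5 CPM at 3 h and 4.43 CPM at 24 h. Skil, a nuclear inhibitor of SMADs, fell by 0.84, 0.64 and 0.85.

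In long-term EMM the balance was toward lower levels. Against Serum/LIF, 3 rose and 20 fell at P10, with a median log2 fold change of -0.52, and 4 rose and 14 fell at P20, with a median of -0.15. Without the third P20 Serum/LIF library, 11 and not 18 passed at P20. Of 5 tested targets 4 fell at each passage, and of 8 tested antagonists 4 did. Msx2, a homeobox target, was at 0.184 CPM in P10 EMM and 2.50 CPM in P10 Serum/LIF, a log2 fold change of -3.66 ± 0.58 (adjusted p = 4.3e-05, edgeR). At that level in P10 EMM the size of the fold rests on few counts. Nog fell by 1.79 at P10 and 2.71 at P20, the reverse of its direction in the time course. Fst (follistatin), an antagonist that also binds activin, fell by 1.47 and 1.10. Neo1 rose at both passages, by 1.77 ± 0.08 and 1.52 ± 0.08. These are comparisons with the Serum/LIF libraries that also hold the fibroblast markers given above. The trophectoderm sum was 19.6 to 20.6 CPM in P10 Serum/LIF and 0.734 to 1.44 CPM in P10 EMM, with 2 of 3 tested genes lower, and T was at 13.6 to 44.7 CPM and 0.147 to 0.400 CPM. Of 5 tested mesoderm genes 1 was higher and 2 were lower at P10, where Kdr was at 5.28 to 6.59 CPM in EMM and 1.02 to 2.15 CPM in Serum/LIF, and 0 were higher and 3 lower at P20. The part of these markers in the pathway counts was not tested.

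In 2i/LIF against Serum/LIF, 12 rose and 14 fell at P10 and 12 rose and 18 fell at P20. Bmp7 rose by 2.56 ± 0.18 and 1.34 ± 0.18, while Bmp8b was at 3 counts or fewer in P10 2i/LIF and at least 36.5-fold lower there. Bmp8a and Bmp8b are close paralogs, and reads that fit both may be split between them. Smad9 rose from 0.281 CPM to 5.60 CPM at P10 and from 0.928 to 10.3 CPM at P20. Dusp9, a phosphatase gene known as a BMP target in ESCs, fell from 132 to 6.52 CPM at P10 (log2 fold change -4.35 ± 0.13, adjusted p = 2.0e-14, edgeR), in the same libraries in which Id1 and Id2 were low. Nog was at least 16.5-fold lower in P10 2i/LIF. The E protein genes Tcf4 and Tcf12 rose by 1.76 ± 0.12 and 1.29 at P10, and Rgma, a co-receptor, by 3.54 ± 0.24.

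EMM was then set against 2i/LIF: 10 other pathway genes were higher and 19 lower in EMM at P10, and 16 and 13 at P20. Skil was higher in EMM by 1.23 ± 0.11 and 2.85 ± 0.11, and Dusp9 by 2.21 ± 0.13 and 2.14 ± 0.12. Smad9, Bmp7, Rgma and Fst were lower in EMM at both passages. Smad5 and Smad4 were lower in EMM at P10, by log2 fold changes of -0.53 and -0.35, and did not pass at P20.

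**Figure D5:**
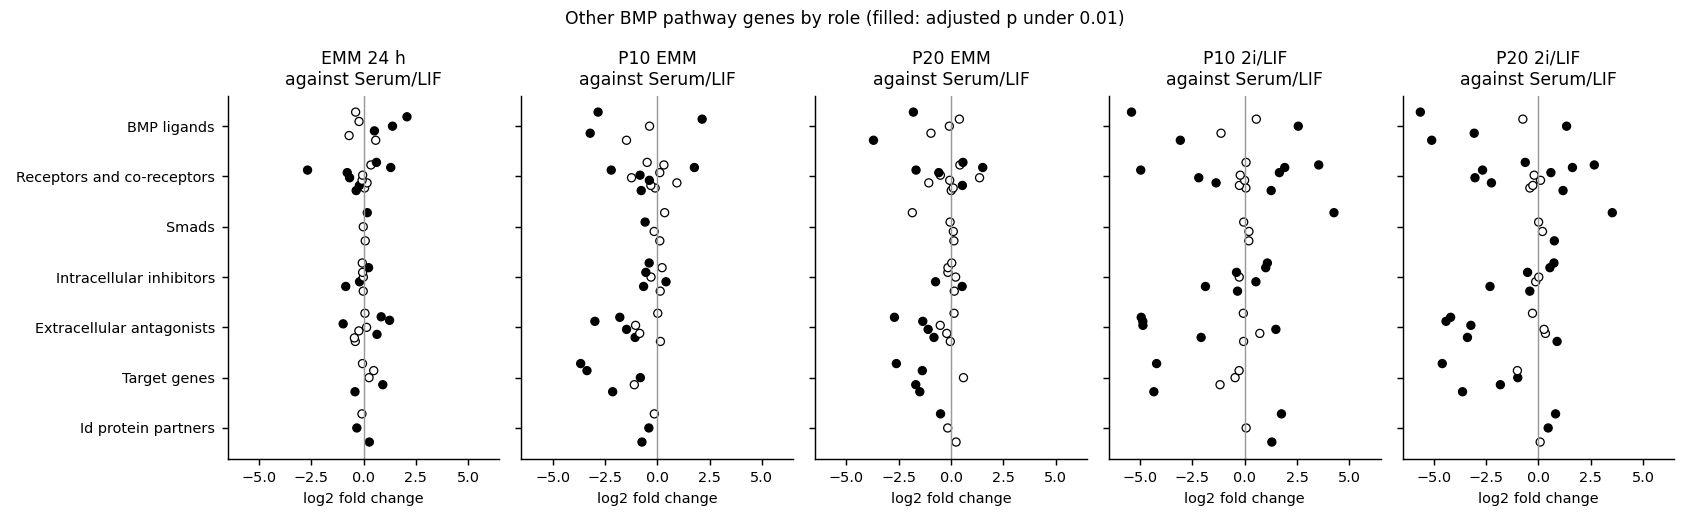
Log2 fold change (horizontal axes) of the tested pathway genes outside the 8 members, by role (rows), in 5 comparisons with Serum/LIF. Each point is a gene, filled where the adjusted p was under 0.01. The spread in EMM at 24 h, from -2.68 for Hfe2 to 2.08 for Gdf6, is the narrowest of the 5, and in P10 EMM the filled points of targets and antagonists are all left of 0.

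From P10 to P20, 14 rose and 3 fell in EMM, 3 rose and 11 fell in 2i/LIF, and 0 of 44 passed in Serum/LIF with edgeR, where 10 had an unadjusted p under 0.05 and DESeq2 called 2. Without the third P10 Serum/LIF library 1 passed in Serum/LIF. In 2i/LIF, fitting only the groups compared gave 6 rather than 14. The primitive endoderm sum was 6.99 to 8.09 CPM in P10 EMM and 14.7 to 22.2 CPM in P20 EMM, with 2 of 6 tested genes higher and 0 lower. Of 6 ESC markers 0 were higher and 3 lower in P20 EMM. The part of these markers in the counts was not tested. The effect of EMM against Serum/LIF differed between the passages for 11 of 44 genes by the interaction test, beside 14.7% of all genes, and that of 2i/LIF against Serum/LIF for 9 of 44, beside 20.0%. Leaving out 1 library brought the 11 down to 6 without the first P20 Serum/LIF library, and to 7 without the third P10 EMM or the first or second P20 EMM library. Smad7, the inhibitory SMAD shared with TGF-beta signalling, was 0.42 higher in EMM at P10 and 0.74 lower at P20 on the log2 scale, a difference of -1.16 ± 0.13 (adjusted p = 5.1e-06, edgeR). Skil turned the other way, from -0.65 to 0.53, a difference of 1.19 ± 0.15 (adjusted p = 1.1e-05, edgeR).

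Genes with the most similar pattern to each of the 7 members that passed the filter in both experiments, all but Grem1, were looked for among genes whose group means spanned at least 1 on the log2 scale in both experiments, scored by the lower of the correlations over the 4 time-course means and the 6 passage means. Id4 was most like Acox3, Acss1 and Renbp, with lower correlations of 0.99, 0.98 and 0.97. Id2 was most like Dusp4, P2ry2 and Fam217b (0.98, 0.97 and 0.96), and Bmp4 like Gas7, Aard and Rapgef3 (0.95, 0.92 and 0.90). The best partners were lower for Id1 (Htra1, 0.87), Smad6 (Lrrc75a, 0.88), Bambi (Alox5ap, 0.88) and Id3 (Tnfaip8, 0.77). With 4 and 6 points that share libraries, these values describe likeness only.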

How the data were processed

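RNA-seq gene tables of 12 time-course and 18 passage libraries of E14tg2a cells were used, 3 libraries per group, taken from independent experiments per the study's methods. For the time course the authors deposited raw counts per Ensembl gene, and for the passages they deposited estimated counts, of which 9.98% were not whole numbers and were rounded here. The submitters' processing notes name STAR and featureCounts for the time course and STAR and Salmon for the passages, with DESeq2 and the mouse build mm10, whereas the methods text names STAR and HTSeq, so the counter is uncertain. Library kits also differed between the experiments, and levels were compared within an experiment only. No column of other samples was used (0 found).

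CPM are counts divided by the library total times its TMM factor and scaled to a common size, and CPM per kilobase divides them by the gene's union of exons in GENCODE M21 (GRCm38). Genes passing edgeR's filterByExpr were normalized by TMM and fitted with edgeR 4.0.16 in R 4.3.3 (quasi-likelihood test, Benjamini-Hochberg adjustment over all genes tested, all groups of an experiment in 1 model). Passing means an adjusted p under 0.01, two-sided. The scripts were tested on simulated data. Grem1 and other genes at 3 counts or fewer in every library of a group have folds given only as bounds against 3 counts per library.

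The 8 members, the list of 61 other pathway genes and the marker lists were chosen with earlier results of these data known. Named pathway genes were, per role and comparison, those with the largest rise and the largest fall among genes that passed, plus Smad1, Smad4, Smad5, Bmpr1a, Bmpr2, Smad7, Nog and Fst. Alternatives were DESeq2 1.42.0, other size factors, other filters, unrounded values, a fit of the compared groups alone, a block for the replicate number, other thresholds and leaving out each library.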

Additional observations from a re-analysis of the deposited data

Results flagged for a closer look

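The interaction test of the same edgeR model compared the effect of a medium at P20 with that at P10, and the values are differences on the log2 scale, P20 minus P10. For EMM against Serum/LIF the tested ligand Bmp8a differed by -1.75, and its reads may be shared with the paralog Bmp8b. Among receptors and co-receptors, Bmpr1b differed by 2.60, Acvrl1 by -2.00, Acvr2b by 0.85 and Rgmb by 1.06. Of signal carriers and their inhibitors, Smad5 differed by 0.54, Smad7 by -1.16, Smurf1 by 0.52 and Skil by 1.19. The target genes Hey1 and Dusp9 differed by 1.40 and 0.64.

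For 2i/LIF against Serum/LIF, the effect on Bmp7 differed by -1.22, on the co-receptor Eng by -1.06, on Smad1 by 0.56 and on Smad7 by -0.67. The antagonists Fst and Crim1 differed by -1.22 and -1.31, the target Dusp9 by 0.71, and the E protein genes Tcf4 and Tcf12 by -0.94 and -1.21. Smad1 lies on chromosome 8, whose median was 0.45 above that of all genes in P20 2i/LIF against P20 Serum/LIF.

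For 2 members every library moved one way at P10 and the other way at P20, and the difference was not tested because the members had been chosen from these values. Bmp4 in EMM against Serum/LIF had log2 fold changes of 2.42 at P10 and -0.43 at P20. Id4 in EMM against 2i/LIF had log2 fold changes of -0.39 at P10 and 0.40 at P20. Groups of 3 libraries were not searched for outlying libraries.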

How the results depend on the processing

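Of 87 member values, 49 passed, and at the same threshold 9 of these lost the call under at least 1 alternative fit while 12 others gained one. An adjusted p under 0.05 gave 62, and 29 of the 49 also had a log2 fold change above 1 in size. Among 1215 member values under these alternatives, none belonging to a comparison that passed changed sign, while some that did not pass lay near 0 and did. With the threshold raised to an adjusted p under 0.01 and a log2 fold change above 1 in size, other pathway genes passing went from 20 to 4 at 3 h, 20 to 5 at 9 h, 22 to 5 at 24 h, 23 to 12 and 18 to 11 in EMM against Serum/LIF at P10 and P20, 29 to 18 in EMM against 2i/LIF and 30 to 19 in 2i/LIF against Serum/LIF at P20, and, from P10 to P20, 17 to 6 in EMM and 14 to 5 in 2i/LIF. Requiring at least 10 counts in every library left 19 of 29 in P10 EMM against 2i/LIF and 17 of 26 in P10 2i/LIF against Serum/LIF. That filter leaves out genes under 10 counts in any passage library, whatever its medium. Fitting only the groups compared gave 6 rather than 14 from P10 to P20 in 2i/LIF. In Serum/LIF from P10 to P20, against 0, it gave 1, DESeq2's Wald test gave 2, no filter gave 2, an adjusted p under 0.05 gave 5, and leaving out 1 library gave 0 to 1. Leaving out 1 library gave 11 to 16 rather than 18 in P20 EMM against Serum/LIF and 6 to 11 rather than 11 for the change of the EMM effect with passage, whose alternatives were chosen after seeing the data. The causes were not tested.

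Replicate numbers in the titles are shared between groups, but same-numbered libraries did not deviate together: correlations had a median of 0.0067 over 18 time-course pairs and 0.0033 over 45 passage pairs, with 5 and 3 over 0.1, so the numbers were not taken to pair libraries. With the replicate block, 21, 21 and 21 pathway genes passed at 3, 9 and 24 h, and 22 and 17 in EMM against Serum/LIF at P10 and P20. For members this block lost the call of Smad6 in P10 EMM and no other. Numbers in the library names differ from the titles, and as a block they gave 17, 19 and 15 at 3, 9 and 24 h and lost the calls of Smad6 at 3 h and 9 h, with 5 of 15 pairs correlated over 0.1. Scaling by library totals alone shifted members and pathway genes by a median of -0.12 in P20 2i/LIF against Serum/LIF and moved no higher to lower split by over 10 points. Grem1 is limited by depth in the passages, with 12 counts at most.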
